A study of Mus musculus with 24 samples.

Results

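The set comprises 10 genes of the trophoblast lineage (Elf5, Plet1, Cdx2, Eomes, Tfap2c, Gata3, Hand1, Tead4, Krt8 and Krt18) out of 21523 genes placed on the mouse genome, build mm10. They were taken by name as genes of the lineage. Each gene was read at 1 of its annotated ends, the one with more CpG rows within 1000 bp on either side. The level is the percentage of methylated calls among all calls in that window, and all 10 ends had enough calls to be among the 20320 ends tested.

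The libraries were oxidative bisulfite whole-genome libraries, which report 5-methylcytosine without its hydroxymethyl form. The knock-in (KI) libraries came from iPS clones N5 and N9, which carry an inducible miR-203 allele, and the wild-type (WT) libraries from 1 iPS line. Both genotypes were sampled at t=0 (before doxycycline), at day 10 and day 25 (5 days of doxycycline, then withdrawal), and as embryoid bodies (EB), the spheres that iPS cells form in hanging drops. The KI embryoid bodies are labelled with doxycycline, whereas the label of the WT embryoid bodies names none, so whether those cells had received it is not given. Each clone gave 1 library per stage, so n = 2 for KI and n = 1 for WT at each stage, from 24 deposited lane samples and 12 libraries. N5 and N9 are each 1 clone, all iPS cells were grown over feeder cells, and the labels do not say whether feeders were removed before DNA was taken. The WT embryoid bodies are labelled as 10 days of differentiation, whereas the design text gives 7 days, and the KI labels give no number.

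The trophoblast is the first lineage to separate from the embryo proper and forms the placenta. Elf5 is known as its epigenetic gatekeeper: the Elf5 promoter is methylated and silent in embryonic cells and unmethylated in trophoblast stem cells, where Elf5 sustains the trophoblast factors Cdx2 and Eomes. Embryonic stem and iPS cells rarely enter the lineage, and methylation at Elf5 is one of the described barriers.

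The sequences of 4 RefSeq promoters (GRCm38.p6, 250 bases before to 50 after the start) are shown because the windows around the Elf5 and Plet1 starts carry differences described below, and Cdx2 is a CpG-rich start with almost no methylation. Capitals mark CpG sites.
Elf5, first start, chr2:103411848-103412147, plus strand: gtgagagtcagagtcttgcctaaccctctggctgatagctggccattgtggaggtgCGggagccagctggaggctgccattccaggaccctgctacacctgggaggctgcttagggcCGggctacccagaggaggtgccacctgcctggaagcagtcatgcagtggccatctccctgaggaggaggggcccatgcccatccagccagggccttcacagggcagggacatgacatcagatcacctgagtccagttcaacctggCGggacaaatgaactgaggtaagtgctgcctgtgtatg
Elf5, second start, chr2:103423818-103424117, plus strand: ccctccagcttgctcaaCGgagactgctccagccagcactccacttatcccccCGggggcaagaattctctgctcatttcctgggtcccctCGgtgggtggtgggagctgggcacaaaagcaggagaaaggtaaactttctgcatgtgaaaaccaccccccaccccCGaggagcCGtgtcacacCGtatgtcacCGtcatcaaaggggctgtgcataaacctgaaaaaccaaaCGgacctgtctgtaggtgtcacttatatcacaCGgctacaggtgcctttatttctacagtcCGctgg
Plet1, chr9:50494275-50494574, plus strand: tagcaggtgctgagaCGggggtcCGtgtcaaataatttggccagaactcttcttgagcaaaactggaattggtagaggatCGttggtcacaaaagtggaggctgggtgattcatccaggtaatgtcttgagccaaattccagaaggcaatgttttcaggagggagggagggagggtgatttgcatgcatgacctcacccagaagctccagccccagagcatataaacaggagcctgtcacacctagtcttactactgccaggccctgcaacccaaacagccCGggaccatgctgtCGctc
Cdx2, chr5:147307200-147307499, minus strand: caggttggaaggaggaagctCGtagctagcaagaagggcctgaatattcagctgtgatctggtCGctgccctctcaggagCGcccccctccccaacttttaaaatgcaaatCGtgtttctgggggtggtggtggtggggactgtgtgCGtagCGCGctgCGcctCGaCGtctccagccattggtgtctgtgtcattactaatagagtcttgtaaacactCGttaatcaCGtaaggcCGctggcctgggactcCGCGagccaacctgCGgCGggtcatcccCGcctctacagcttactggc

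The first Elf5 promoter holds 3 CpGs, and 31.4% of 32851 RefSeq promoters hold as few or fewer. The second Elf5 start, 11970 bp further along the gene, has 10 CpGs and the Plet1 promoter has 5. The Cdx2 promoter has 18, and 71.9% of promoters have as many or fewer. Each of these CpGs has a row in the deposited table. RefSeq promoters of Eomes, Gata3, Krt8 and Krt18 were also matched, so 7 of the 10 genes have one; Tfap2c, Hand1 and Tead4 are named only. The end read for Elf5, Plet1, Cdx2, Krt8 and Krt18 is a listed RefSeq start.

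Calls on assembled chromosomes numbered 102729088 to 191102862 per library, a mean coverage of 4.70 to 8.74 per CpG. Levels over the whole genome were taken from the 12916174 CpGs with a call in every library. KI levels were 65.1% in each t=0 clone, 48.6 and 47.9% by day 25 and 72.2 and 71.4% once embryoid bodies had formed. The WT libraries had 60.7, 61.2 and 69.7%. The ratio of coverage on the first part of chromosome Y to that on chromosome 5 varied among KI libraries. It was 0.0367 and 0.0378 for t=0, 0.00112 and 0.000957 for day 10, 0.0122 and 0.00997 for day 25, then 0.000843 and 0.000256 for embryoid bodies. WT ratios lay between 0.000622 and 0.00173. The same ratio for chromosome X was 0.520 and 0.523, 0.695 and 0.694, 0.594 and 0.618, then 0.642 and 0.511 in these KI libraries, against 0.606 to 0.676 in WT. On chromosome Y the KI t=0 libraries stand apart, with KI day 25 in between. On chromosome X they do not, since N9 embryoid bodies (0.511) lay below both, while N5 embryoid bodies had 0.642. The identity and feeder content of these libraries were not tested, nor was their part in the results; day 10 was also used in place of t=0. Gene ends of 10 pluripotency markers had median levels of 9.38, 8.04, 2.98 and 8.43% over the 4 KI stages, and those of 10 fibroblast markers 16.5, 17.2, 16.7 and 37.0%. These levels average over all cells of a library, so partial methylation in every cell and a mixture of cells cannot be told apart. RNA was not analysed here.

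Elf5, an ETS-family transcription factor (chr2:103412098-103450989), was the most methylated of the 10 ends and lost methylation in both KI clones by day 25. At its first start (chr2:103411098-103413098, 28 CpGs), N5 and N9 had 77.3 and 78.2% at t=0, 64.2 and 69.1% on day 10, 42.9 and 58.3% on day 25, and 81.9 and 81.2% as embryoid bodies. WT had 68.6, 63.0, 70.0 and 82.6% at these stages. Both KI day 25 libraries lay below all 10 other libraries. Their spread was wide, 50.6% ± 10.9 (SD, n = 2) at day 25 against 77.8% ± 0.622 at t=0. The 3 CpGs of the printed first promoter had fewer calls, 15 to 55 per library. N5 and N9 had 60.9 and 63.2% there at t=0, 79.2 and 73.1% on day 10, 47.3 and 54.2% on day 25, and 89.3 and 85.0% as embryoid bodies, and WT had 76.0, 55.9, 93.3 and 75.0%. The KI day 25 libraries were again the lowest, but KI at day 10 lay above KI at t=0, unlike in the window.

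By edgeR's quasi-likelihood test with Benjamini-Hochberg adjustment over all ends, 4 of the 10 ends were lower at KI day 25 than at KI t=0 (Elf5, Plet1, Tfap2c and Krt8) and none was higher. Of all ends, 40.2% were called lower, and 4 of 10 is near that share. Elf5 differed by -1.79 log2 odds (adjusted p = 0.000943). The median of all ends was -0.98, and relative to it Elf5 was at -0.81. Set against day 10 instead of t=0, the Elf5 difference was -0.99 (adjusted p = 0.0594) and no longer passed, leaving Plet1 as the 1 member called, beside 10.1% of all ends. On levels centred on each library's median limma called 0 of the 10.

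The lower level ran along the whole Elf5 locus. In 2 kb bins from 10 kb before the first start to 50 kb after it, KI at day 25 was lower than KI at every other stage in each of the 30 bins. No other locus was read in 2 kb bins for comparison, and the KI libraries as a whole were also lowest at day 25. At the first start itself, 21 of the 23 CpGs called in every library were lower at KI day 25 than at KI t=0, and 22 of 23 were higher in KI embryoid bodies than at KI day 25. In KI means, Elf5 fell to 65.1% of its t=0 level at the first start, 72.5% over its gene body and 84.2% at its other end. The KI libraries as a whole fell to 74.1% over the CpGs called in every library, whereas the Elf5 shares use all CpGs of each region. The clones differed at the first start, with 42.9% in N5 and 58.3% in N9 at day 25.

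**Figure D1:**
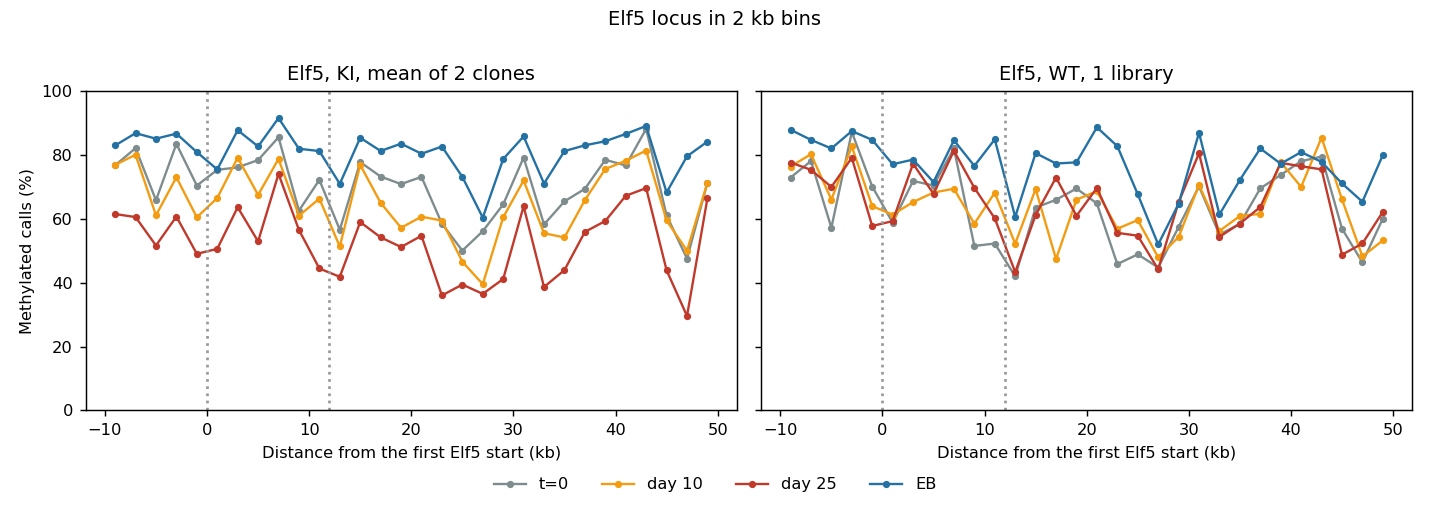
Methylated calls (%) in 2 kb bins along the Elf5 locus against distance from the first start (kb), for KI (left, mean of clones N5 and N9) and WT (right, 1 library per stage); dotted lines mark the first and second Elf5 starts. The KI day 25 line lies below the other KI stages along the locus, and the WT t=0, day 10 and day 25 lines cross each other.

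The second Elf5 start (45 CpGs) showed the same order of stages in KI. N5 and N9 had 61.4 and 57.6% at t=0, 54.6 and 46.6% on day 10, 34.3 and 36.8% on day 25, and 70.2 and 69.9% as embryoid bodies. WT was low already at t=0, with 32.8, 49.6, 40.8 and 64.1%. In a fit over 30770 RefSeq starts, added after the data were seen, this start was lower at KI day 25 than at t=0 by edgeR (log2 odds -1.42, adjusted p = 0.00108; 50.9% of starts lower). It was higher in KI than in WT at t=0 (1.59, adjusted p = 0.0415), a call made for 0.162% of starts. The KI change from t=0 to day 25 was also below the WT change there (-1.91, adjusted p = 0.0438; 5.01% of starts lower). WT contributed 1 library to each of these stages, and both calls against WT used the same WT t=0 library. At day 25 KI and WT differed at this start by -0.32 log2 odds, which was not called. In the 10 CpGs of the printed second promoter (23 to 85 calls per library), KI moved by -25.7 points from t=0 to day 25. WT moved by -13.1 points there, against 7.91 points in the window, and WT at day 25 was the lowest library (21.7%).

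Plet1, a cell-surface protein that marks trophoblast progenitors (chr9:50493525-50495525, 34 CpGs), fell to 38.7% of its t=0 level in KI by day 25, the lowest share among the 4 called members. N5 and N9 had 30.3 and 32.7% at t=0, 20.6 and 30.2% on day 10, 13.2 and 11.1% on day 25, and 38.6 and 47.8% as embryoid bodies. WT had 28.9, 33.4, 33.7 and 19.5%. The KI day 25 libraries were the lowest of the 12 and the KI embryoid bodies the highest, whereas the WT embryoid bodies were the lowest WT library. Plet1 was lower at KI day 25 than at KI t=0 by -1.72 log2 odds (edgeR adjusted p = 0.00131), and 27 of 30 CpGs called in every library were lower.

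Against WT at day 25, Plet1 was the only member called: 1 of the 10 ends was lower in KI, beside 10.2% of all ends. Its difference was -1.87 log2 odds (edgeR adjusted p = 0.00724), and -1.10 relative to the median of all ends. The call was lost with windows of 500 bp on either side (adjusted p = 0.0841) and with limma (adjusted p = 0.0731). Elf5 missed the threshold at -1.21 (adjusted p = 0.0792), as did Krt8 at -1.23 (adjusted p = 0.0598). In the fit over RefSeq starts, Krt8 passed on the same window (-1.23, adjusted p = 0.0489), beside 13.8% of starts. Elf5 did not pass at its first start (adjusted p = 0.0632) or at its second (-0.32 log2 odds).

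Among the other transcription factors, Tfap2c was the only one called at KI day 25 against KI t=0. Tfap2c, which encodes the AP-2 gamma factor of early trophoblast (59 CpGs), had 14.3 and 12.6% at t=0, 6.28 and 9.72% on day 10, 5.39 and 5.94% on day 25, and 19.4 and 16.4% as embryoid bodies in N5 and N9. WT stayed between 9.06 and 11.8%. The KI day 25 libraries were below every WT library and the KI embryoid bodies above every one. Tfap2c was lower at KI day 25 than at KI t=0 by -1.37 log2 odds (edgeR adjusted p = 0.00828). Without N5 at t=0 the adjusted p was 0.0522, and without N5 at day 25 it was 0.0632.

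Cdx2, the homeobox factor of the trophectoderm (121 CpGs), was at or below 5.50% in every library, and Eomes, a T-box factor of trophoblast stem cells (125 CpGs), at or below 0.891%. Levels as low as those of Eomes may include calls from incomplete conversion, which was not measured here. Hand1, a basic helix-loop-helix factor of trophoblast giant cells (103 CpGs), ran between 2.02 and 11.2%. The other Hand1 end (80 CpGs) ran between 2.64 and 28.1%, with 12.8% at KI t=0 and 4.7% at KI day 25. Which of these ends holds the start was not given. Tead4, the TEAD factor that acts upstream of Cdx2 in the Hippo pathway (116 CpGs), ran between 2.80 and 6.50%. At the ends read, none of these 4 passed at KI day 25 against KI t=0.

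Gata3, a zinc-finger factor of the trophectoderm, was read at its higher-coordinate end (chr2:9886953-9888953, 25 CpGs). N5 and N9 had 18.4 and 13.0% at t=0, 22.6 and 20.9% on day 10, 14.0 and 16.4% on day 25, and 43.4 and 46.6% as embryoid bodies. WT had 16.1, 14.3, 12.0 and 42.2%. Embryoid bodies of both genotypes were above all iPS libraries, and KI minus WT ran from -0.35 to 7.44 points over the 4 stages. The RefSeq start of Gata3, 9353 bp away, lay between 0 and 2.49% in the 12 libraries. The library at 0 was N9 at t=0, with 504 calls, which allow a level of up to 0.595%. In the fit over RefSeq starts this start was called higher in KI embryoid bodies than at KI day 25 (adjusted p = 0.0231) and than at KI t=0 (adjusted p = 0.0336; 14.7% of starts). The KI embryoid bodies had 17 methylated of 684 calls in N5 and 3 of 516 in N9, so most of the methylated calls came from 1 library.

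**Figure D2:**
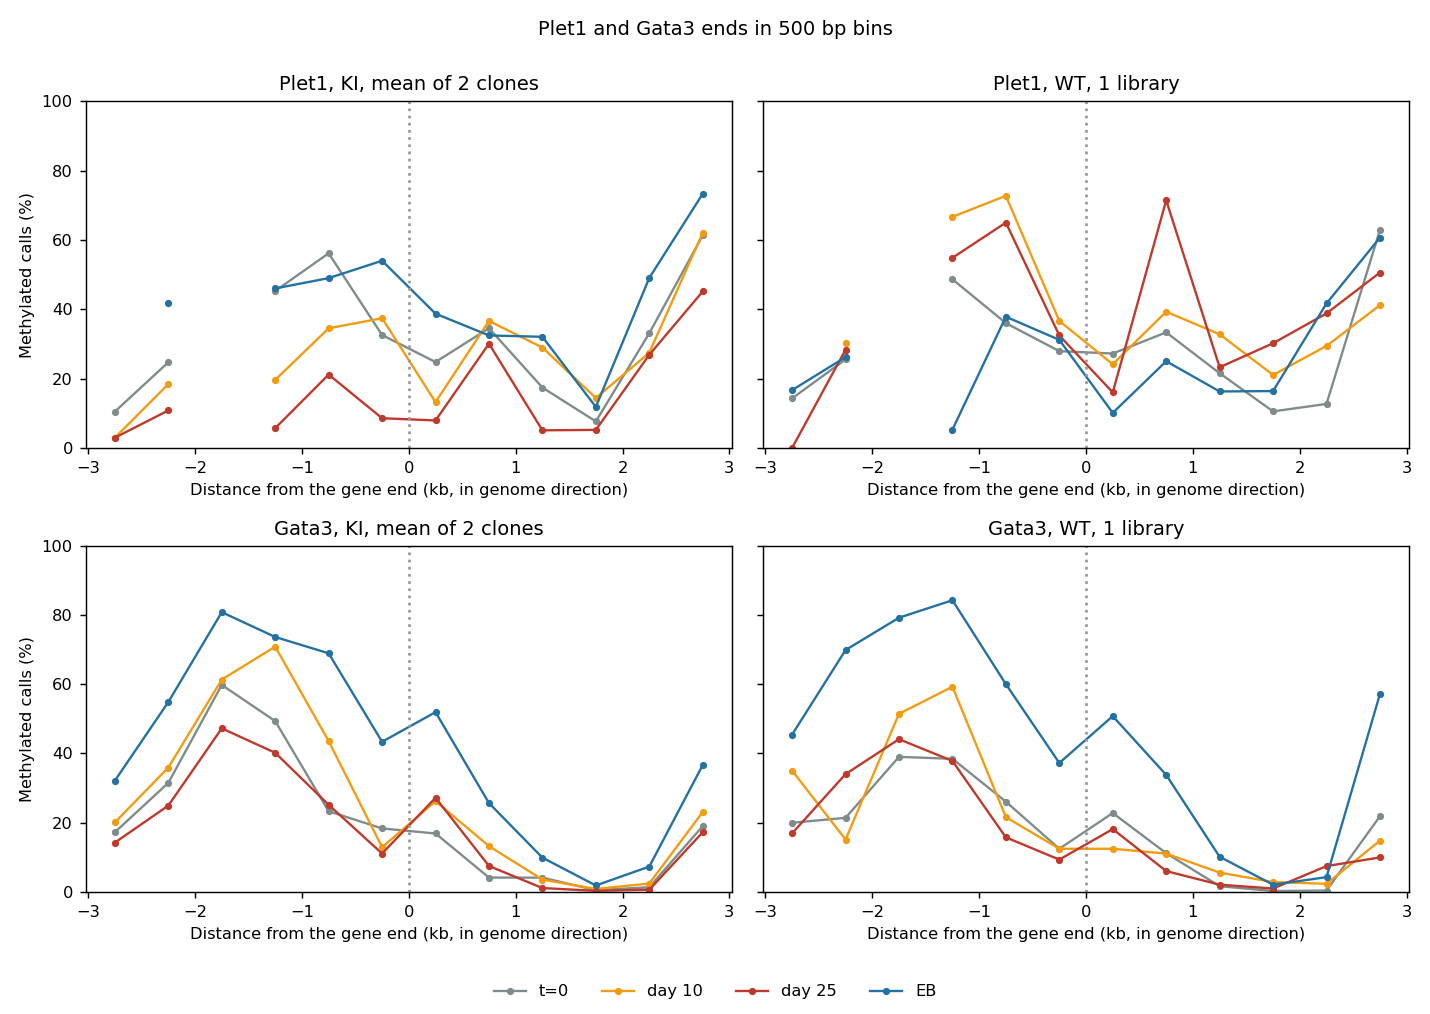
Methylated calls (%) in 500 bp bins within 3 kb of the Plet1 end (top) and the Gata3 end (bottom), for KI (left, mean of clones N5 and N9) and WT (right, 1 library per stage); bins in which a library had under 10 calls are not drawn. Plet1 in embryoid bodies reaches 54.0% in KI and 31.2% in WT in the bin just before the end, while within 1 kb of the Gata3 end the embryoid body lines of both genotypes lie above the iPS lines.

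The keratins Krt8 and Krt18 pair into the filaments of simple epithelia, including trophectoderm, and their ends lie 23874 bp apart on chromosome 15. Krt8 (56 CpGs) had 25.4 and 23.5% at t=0, 13.9 and 19.2% on day 10, 13.5 and 13.3% on day 25, and 35.2 and 33.9% as embryoid bodies in N5 and N9. WT had 31.3, 20.8, 26.7 and 37.2%. Krt8 was lower at KI day 25 than at KI t=0 by -1.06 log2 odds (edgeR adjusted p = 0.0168), close to the median of all ends, and the call was lost without any 1 of the 4 libraries. Krt18 (65 CpGs) ran from 10.7% to 24.3% over all libraries and did not pass (-0.50, adjusted p = 0.243).

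**Figure D3:**
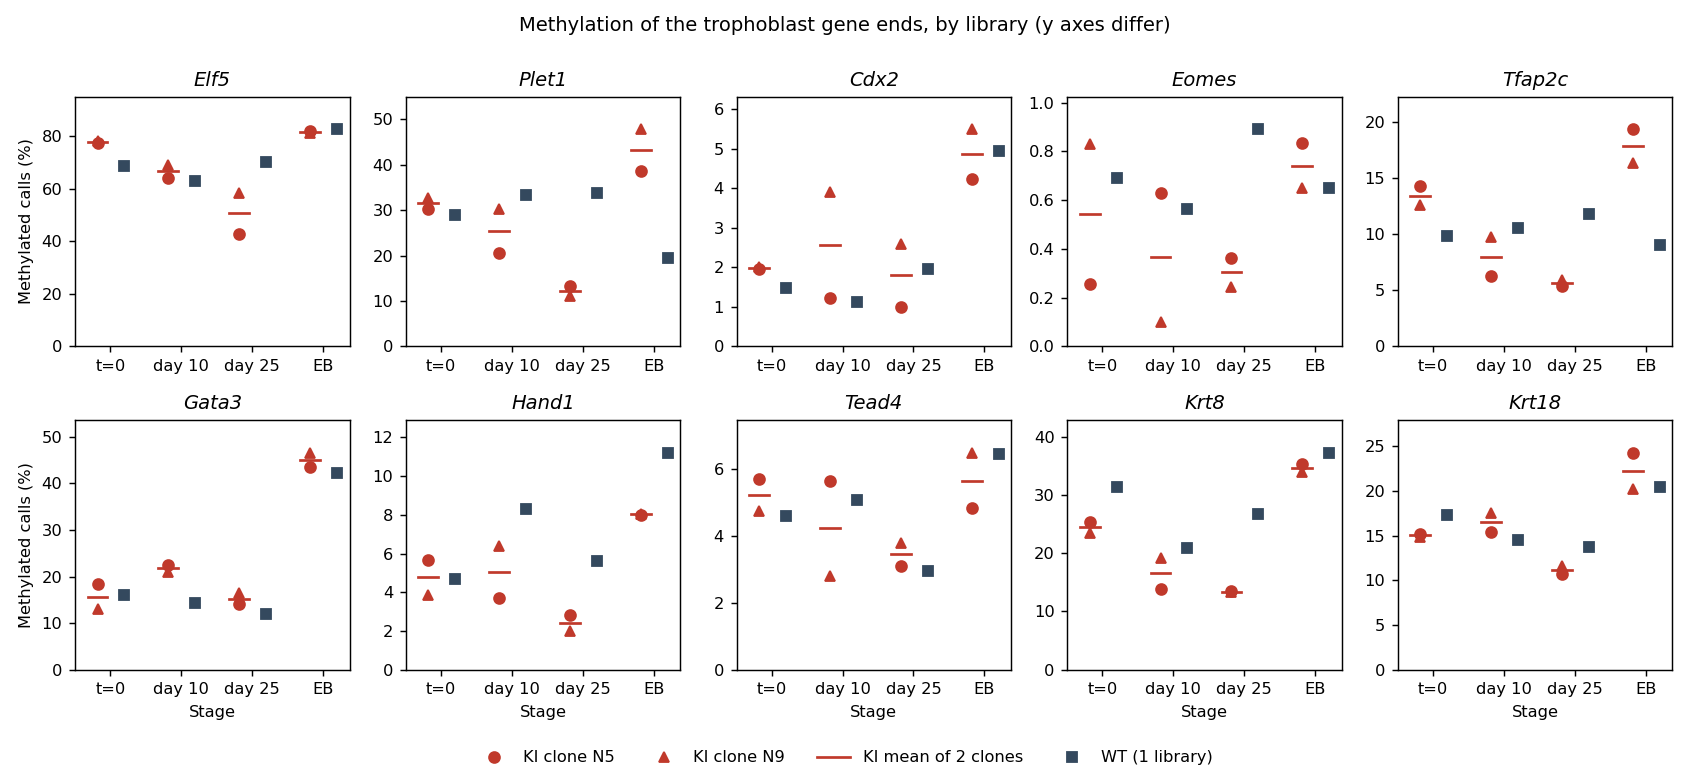
Methylated calls (%) at each of the 10 gene ends by stage; circles and triangles are KI clones N5 and N9, bars their mean, and squares the single WT library, with a y axis of its own for each gene. Elf5 spans 42.9 to 82.6% and Eomes 0.101 to 0.891%; the KI day 25 libraries are the lowest of the 12 at Elf5, Plet1, Tfap2c, Hand1, Krt8 and Krt18.

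At day 10 no member differed from KI t=0 by edgeR (0 of 10; 0.197% of all ends called), and 2 (Elf5 and Tfap2c) had an unadjusted p under 0.05. Limma also called 0. Elf5 moved by -13.1 points in N5 and -9.11 points in N9, against -5.56 points in WT.

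Of the 10 ends, 8 were higher in KI embryoid bodies than at KI day 25 by edgeR (Elf5, Plet1, Cdx2, Tfap2c, Gata3, Hand1, Krt8 and Krt18), beside 74.6% of all ends, a share near theirs. Elf5, Plet1, Tfap2c and Krt8, the 4 ends called lower at day 25, were all among them. Gata3 and Cdx2 were too, although they had differed little before, with 15.2% ± 1.68 and 1.80% ± 1.13 at KI day 25 against 15.7% ± 3.83 and 1.99% ± 0.0427 at KI t=0 (SD, n = 2 each). In WT, with 1 library per stage, embryoid bodies minus day 25 was -14.2 points at Plet1, -2.78 at Tfap2c and -0.24 at Eomes, and positive at the other 7 ends. The median of all ends in KI was 1.52 log2 odds. Plet1 differed by 2.45 (adjusted p = 2.98e-06), Gata3 by 2.20 (adjusted p = 6.88e-06) and Elf5 by 2.13 (adjusted p = 1.91e-05). The second Elf5 start was higher by 2.08 (adjusted p = 2.40e-06), beside 80.8% of starts. Cdx2 had 4.24 and 5.50% in KI embryoid bodies against 0.998 and 2.60% at KI day 25, and its call was lost without N5 at day 25 (adjusted p = 0.159) or N9 as embryoid bodies (adjusted p = 0.0548). Krt18 was higher by 1.19 (adjusted p = 0.0045), below the median of all ends, and on centred levels it stood at -0.12. No member was called on centred levels.

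Set against KI t=0 instead, 1 of the 10 ends, Gata3, was higher in KI embryoid bodies, beside 8.92% of all ends. Its difference was 2.13 log2 odds (edgeR adjusted p = 0.000492), and 1.59 relative to the median of all ends. The call was lost with limma (adjusted p = 0.0923) and at the other gene end (adjusted p = 0.0654). All 23 Gata3 CpGs called in every library were higher in KI embryoid bodies than at KI day 25, and 20 of 23 were higher in WT embryoid bodies than at WT day 25. Elf5 was at 81.6% ± 0.491 in KI embryoid bodies against 77.8% ± 0.622 at KI t=0 (SD, n = 2 each; 0.34 log2 odds, adjusted p = 0.6). With day 10 in place of t=0, 5 members were called, beside 31.4% of all ends.

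No member was called between KI and WT at the other stages. By edgeR, 0 of the 10 ends were called at t=0 (0.536% of all ends), at day 10 (0.0148%) or in embryoid bodies (0.0689%), and limma also called 0. None had an unadjusted p under 0.05 at t=0 or day 10, and 2 (Plet1 and Tfap2c) had one in embryoid bodies. At Plet1 the KI embryoid bodies had 43.2% ± 6.54 (SD, n = 2) and the WT embryoid bodies 19.5% (95% Wilson interval 15.8 to 23.9%, counting error only), a difference of 1.65 log2 odds (adjusted p = 0.154). At Elf5 the KI embryoid bodies had 81.6% ± 0.491 and the WT embryoid bodies 82.6% (95% Wilson interval 76.8 to 87.2%).

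The change between stages was then compared between the genotypes. From t=0 to day 25, 0 of the 10 ends passed by edgeR (2.11% of all ends were lower), and 3 (Elf5, Plet1 and Tfap2c) had an unadjusted p under 0.05. Elf5 differed by -1.89 log2 odds (adjusted p = 0.0784) and Plet1 by -2.05 (adjusted p = 0.0611). Elf5 moved by -34.4 points in N5 and -19.9 points in N9, against 1.44 points in WT, and limma called 0.

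From day 25 to embryoid bodies, 2 of the 10 ends passed, Plet1 and Tfap2c, beside 6.07% of all ends called higher. Plet1 moved by 25.4 and 36.7 points in N5 and N9, against -14.2 points in WT, a difference of 3.52 log2 odds between the changes (edgeR adjusted p = 0.00107). At single CpGs, 29 of 30 were higher in KI embryoid bodies than at KI day 25, and 11 of 30 were higher in WT embryoid bodies than at WT day 25. Tfap2c moved by 14.0 and 10.5 points, against -2.78 points in WT (2.28 log2 odds, adjusted p = 0.0374). Of its 50 CpGs called in every library, 41 were higher in KI embryoid bodies than at KI day 25. In WT 17 were higher and 17 lower. The Tfap2c call was lost without any 1 of the 4 KI libraries, and limma called neither gene.

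**Figure D4:**
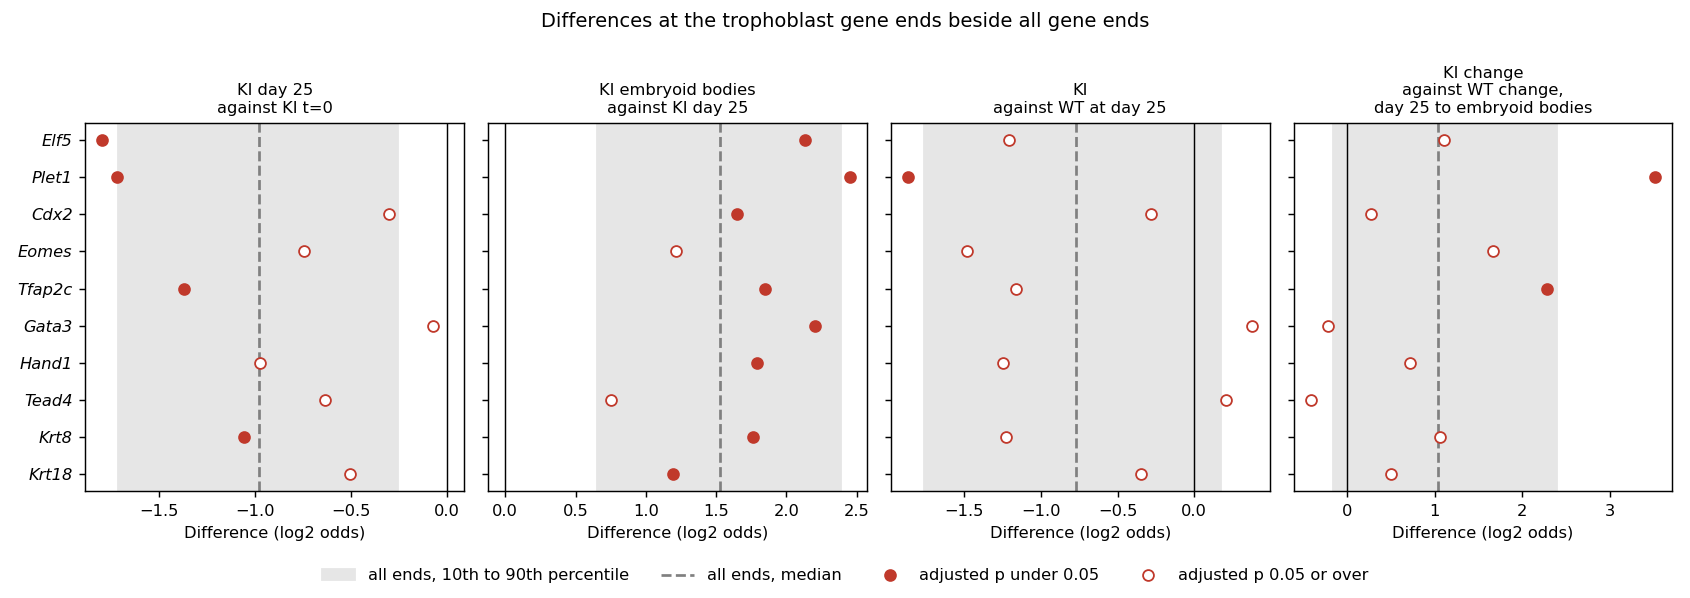
Difference in log2 odds of methylation at each of the 10 gene ends in 4 comparisons (filled, adjusted p under 0.05 by edgeR; open, 0.05 or over); the grey band runs from the 10th to the 90th percentile of all 20320 ends, and the dashed line is their median. Most members lie inside the band. Plet1 lies outside it in all 4 panels except KI day 25 against KI t=0, where it sits at its edge and Elf5 lies further out. Gata3 lies outside on the opposite side in every panel except KI embryoid bodies against KI day 25. Tead4 does so in both comparisons with WT.

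Across the 12 libraries, the ends whose level followed that of Elf5 most closely were Gm13030 (Pearson r = 0.986), Sbpl (0.984), Frrs1 (0.978), Gm11437 (0.976) and Iffo2 (0.975), among 6456 ends of 20 to 60 CpGs. The median r of those ends with Elf5 was 0.756, and all of them share the libraries and their overall levels. Within the set, r with Elf5 was highest for Krt8 (0.814) and Krt18 (0.787) and lowest for Eomes (0.427).

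Other genes of the lineage were read in the same way, from lists drawn up with earlier results known. Of 17 trophoblast stem cell and ectoplacental factors, 2 were lower at KI day 25 than at KI t=0 and 13 higher in KI embryoid bodies than at KI day 25, beside 40.2% and 74.6% of all ends; the first count is below the share of all ends and the second near it. The 2 lower ones were Bmp4, a ligand that drives trophoblast genes (1.38% ± 0.0832 against 11.4% ± 1.08, SD, n = 2 each), and Elf3, an ETS factor (4.94% ± 0.668 against 13.2% ± 2.90). The list's median change was -1.40 points at day 25, against -3.90 for all ends, and 6.48 points in embryoid bodies, against 7.22. Its median level at KI t=0 was 5.39%. Among the 4 with the lowest p in embryoid bodies were Esx1, Bmp4 and Esrrb. Esx1, a homeobox gene of the placenta on chromosome X, whose coverage differed among the KI libraries, had 60.8% ± 9.73 in KI embryoid bodies against 18.4% ± 8.38 at KI day 25.

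Of 12 genes of the Hippo pathway around Tead4, 1 was lower at day 25, Amotl1, an angiomotin-like adaptor (16.9% ± 1.43 against 42.6% ± 4.56 at KI t=0). In embryoid bodies 6 were higher, led by Amotl1, Vgll4, Tead2 and Amot, the last on chromosome X, whose coverage differed among the KI libraries. Both counts are below the shares of all ends (40.2% lower, 74.6% higher). The list's median change was -0.21 points at day 25, against -3.90 for all ends, and 0.795 points in embryoid bodies, against 7.22. Most of this list was near 0, with a median of 0.918% at KI t=0.

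The differentiated placental genes were the most methylated list, with a median of 71.8% at KI t=0. Of 17 tested among 19, 4 were lower at KI day 25 than at t=0 (Phlda2, Psg17, Syna and Prl3d1) and 9 higher in KI embryoid bodies than at day 25, both below the shares of all ends (40.2% lower, 74.6% higher). The list's median change was -12.9 points at day 25, against -3.90 for all ends. Its median level was 53.7% at KI day 25, and ends that start lower have fewer points to lose, so these changes do not compare directly. Some of its ends hold few CpGs, such as 8 at Prl4a1 and Prl7d1, where a change is harder to call. Syna, the syncytin that fuses syncytiotrophoblast, had 43.2% ± 2.38 at KI day 25 against 63.4% ± 3.43 at KI t=0. Phlda2, an imprinted placental gene, had 0.911% ± 0.131 at KI day 25 against 4.39% ± 0.98 at KI t=0.

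Of 12 epithelial keratin and junction genes, 3 were lower at KI day 25 than at t=0 (Krt7, Cdh3 and Cldn4) and 10 higher in KI embryoid bodies than at day 25, beside 40.2% and 74.6% of all ends. Krt7, a keratin of trophoblast epithelia, had 24.6% ± 1.03 at KI day 25 against 37.3% ± 4.20 at KI t=0, and 54.8% ± 1.69 in KI embryoid bodies. The list's median change was -1.28 points at day 25, against -3.90 for all ends, from a median level of 4.75% at KI t=0.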

How the data were processed

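Genomic DNA of 12 libraries (24 deposited lane samples) was analysed; lanes of a library were summed. Per the file headers, the authors deposited counts of methylated calls and coverage per CpG, with no normalization. Each WT stage has a pair of coverage columns, which no label ties to a lane; they were summed as 1 library. Per the submitters' processing notes, BWA, Picard 1.91 and build mm10 were used; the tool that called methylation was not given in the sources used here. All value columns were matched (0 left over). Per the titles, N5 at t=0, day 25 and as embryoid bodies ran on a separate flow cell.

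For each gene, calls within 1000 bp of whichever annotated end has more CpG rows were summed; the gene table gives no strand, so some windows may lie at a 3′ end. Ends with at least 5 CpG rows and 10 calls in every library were tested with edgeR 4.0.16 (R 4.3.3), quasi-likelihood test on methylated and unmethylated counts, 8 groups, 4 residual degrees of freedom, Benjamini-Hochberg over all ends, threshold 0.05. A lone WT library is assumed to vary like the clones; the labels do not say that cultures were independent. limma 3.58.1 on logit levels (offset 0.5) was an alternative. The code was tested on simulated data. A first, guessed spread between clones gave no calls and was replaced by one estimated from the clone pairs. Changes in KI day 25 against KI t=0, the only comparison simulated, were then estimated without bias. Comparisons with WT were not simulated. Where few ends changed, edgeR recovered only part of the larger changes and limma none. Counts of 0, above all with limma, therefore say little there, and counts of calls do not compare between comparisons. Members and lists were chosen with earlier results of these data known. Named beside the members are, per list, at most 4 passing genes with the lowest p (1 of them is counted but not reported here), and the 5 ends most like Elf5 (at least 30 calls). The clones N5 and N9 recur at each stage, which pairs libraries by the labels; their N5 minus N9 differences correlated between stages at -0.0534 to 0.0107 over ends. The RefSeq-start fit and day 10 in place of t=0 were added after the data were seen. Wilson intervals and limits at 0 cover counting error only.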

Additional observations from a re-analysis of the deposited data

Results flagged for a closer look

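The change from day 25 to embryoid bodies differed between KI and WT by the test of that difference at 2 members, Plet1 (3.52 log2 odds, edgeR adjusted p = 0.00107) and Tfap2c (2.28, adjusted p = 0.0374). At the ends read, both clones moved up and WT moved down at each. In WT the Tfap2c CpGs were split, 17 higher and 17 lower in embryoid bodies than at day 25. At the other end of both genes WT moved up too, by 27.2 points at Plet1 and 33.8 at Tfap2c, against KI means of 41.0 and 41.3 points. The Plet1 RefSeq start has the same window as the end read, so its difference in the fit over RefSeq starts was again 3.52. What differed was the set of windows fitted and adjusted over (edgeR adjusted p = 0.000765). In that fit the change from t=0 to day 25 also passed at the second Elf5 start (-1.91, adjusted p = 0.0438). Plet1 passed there too (-2.05, adjusted p = 0.0447), on the window that had not passed among the gene ends (adjusted p = 0.0611). At the second Elf5 start the WT t=0 library was the lowest WT library. KI and WT differed there by -0.32 log2 odds at day 25, which was not called.

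Elsewhere both clones moved one way and WT the opposite way, and these differences were not tested. From t=0 to embryoid bodies KI gained 11.7 points at Plet1 and 4.44 at Tfap2c, against -9.35 and -0.809 points in WT. From t=0 to day 10 the KI change was -6.07 points at Plet1, -5.44 at Tfap2c, 6.02 at Gata3, -0.997 at Tead4 and 1.43 at Krt18, against 4.59, 0.66, -1.77, 0.499 and -2.78 points in WT. N5 moved by only -0.0485 points at Tead4 and 0.185 at Krt18, against -1.95 and 2.67 points in N9.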

How the results depend on the processing

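The number of members called moved as follows. KI day 25 against t=0 (4 called) gave 8 at the other gene end, 0 with limma on centred levels, 1 with day 10 in place of t=0, and 2 to 4 leaving out 1 library. Embryoid bodies against day 25 (8) gave 0 on centred levels and 7 to 8 leaving out 1 library; Krt18 turned to -0.12 log2 odds when centred. Embryoid bodies against t=0 (1) gave 2 with CpGs called in every library, 3 with 2 kb windows or the other end, 0 with limma centred or not, 2 with the replicate block and a flow cell term, and 5 with day 10 in place of t=0. KI against WT at day 25 (1) gave 2 with CpGs called in every library, 0 with 500 bp windows, 4 with 2 kb windows or the other end, and 0 with limma centred or not. KI against WT embryoid bodies (0) gave 1 with 2 kb windows. The change to day 25 (0) gave 1 with 2 kb windows, 3 at the other end, 1 with block and flow cell, and 0 to 1 leaving out 1 library. The change to embryoid bodies (2) gave 1 with 500 bp windows, 0 with limma centred or not, and 1 to 2 leaving out 1 library. The cause was not tested. The replicate block alone, which pairs libraries by clone, changed no count (4 and 8 in the first comparisons). Of 307 alternative values of called members, 262 kept their side of the threshold, 44 lost it and 1 changed sign. The 307 include values from the RefSeq-start fit. For the first Elf5 start, Plet1, Cdx2, Krt8 and Krt18 its windows are those of the main test, so these values are not independent of it. WT windows rest on as few as 110 calls (Elf5 at day 25), and 1 WT library per stage gives no WT spread.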
